A study of Homo sapiens with 6 samples.

Results

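Natural killer (NK) cells kill a target cell when signals from activating receptors outweigh those from inhibitory ones, and tumour cells carry the ligands of both. The genes described here encode such ligands. They are MICA, MICB, ULBP1, ULBP2 and ULBP3, ligands of the activating receptor NKG2D, PVR and NECTIN2, ligands shared by the activating receptor DNAM-1 (CD226) and by inhibitory receptors such as TIGIT, NCR3LG1, which encodes the NKp30 ligand B7-H6, and CD274, which encodes PD-L1, the ligand of the inhibitory receptor PD-1. Of these 9 genes, 8 had at least 1 probe set that names only that gene, 26 probe sets in all, among 18132 genes and 49293 probe sets tested. Members were chosen by an exact match of the gene symbol. NCR3LG1 matched no probe set and was not analysed here.

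Affymetrix PrimeView arrays, 6 in all, measured the transcripts of MDA-MB-231 cells, an established triple-negative human breast cancer line grown in medium with fetal bovine serum. One group of 3 arrays came from cells kept for 8 h with 5 µM SAHA (vorinostat), a hydroxamic acid that inhibits zinc-dependent histone deacetylases, and the other group of 3 from cells kept for 8 h with its solvent DMSO. Both groups are the same line with no other agent named, and no NK cells or T cells are named in the cultures. The comparison asks how transcript levels differ between SAHA and solvent at that time. Since no label says whether replicates came from separate cultures, the p-values reflect only the spread between these samples, which may be technical.

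As background, NKG2D ligands are scarce on most healthy cells and are induced by heat shock, DNA damage, infection and transformation. MICA and MICB are transmembrane proteins related to MHC class I molecules, while ULBP1, ULBP2 and ULBP3 are held in the membrane by a lipid anchor. Both kinds can be shed by metalloproteases, which lowers the surface level and releases soluble decoys. PD-L1 is induced by interferon gamma and restrains T cells and NK cells that carry PD-1.

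Arrays of one group correlated across probe sets at 0.997 to 0.998 and arrays of different groups at 0.968 to 0.970. All 9 measured defining markers of the line, among them VIM, CD44 and AXL, had a mean log2 value above 7, as did 6 of 11 luminal markers. Of the luminal markers, PGR (3.29 ± 0.11 in DMSO) and CDH1 (4.2 ± 0.15, SD, n = 3) were dim. EPCAM (8.67 ± 0.07) and KRT18 (12.07 ± 0.09, SD, n = 3) were bright. In DMSO ESR1 was at 5.98 ± 0.06 and ERBB2 at 7.63 ± 0.15 (SD, n = 3). In limma's test 1 of the 9 markers of the line rose and 6 fell, as did 1 and 6 of 11 luminal markers. None of 18 measured NK cell receptor and effector genes had a mean above 7. Their summed level on the log2 scale was 9.0 to 9.12 in DMSO and 9.10 to 9.12 in SAHA arrays, and 1 of them rose (KLRC1, in a probe set shared by similar transcripts) and 1 fell (CD96). Of 13 leukocyte markers, 2 were above 7 (CD68 and CD7), 1 rose (CD14, by 1.01 ± 0.09) and 2 fell, and the pan-leukocyte marker PTPRC was at 3.33 ± 0.19 and 3.24 ± 0.09 (SD, n = 3). Because whole cultures were measured, fewer cells with a transcript and less of it per cell cannot be told apart. Values are log2 expression values. A change is SAHA minus DMSO in log2 units with its standard error from limma, n = 3 arrays per group, and was called when the Benjamini-Hochberg adjusted p over all genes, or over all probe sets, was under 0.05. A gene stands for its brightest probe set, and levels are not compared between probe sets, whose probes differ in affinity.

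After SAHA, 5 of the 8 measured genes rose and 1 fell. MICA, ULBP2 and NECTIN2 each rose by more than 2-fold and MICB by 1.84-fold. ULBP3 rose by 1.27-fold. PVR fell to 0.484 of its DMSO level, and neither CD274 nor ULBP1 was called. In limma's test 48.3% of all genes were called, 24.6% higher and 23.8% lower, so a call alone is common on these arrays. Calls were more common still among bright genes. Tested among the 8605 genes with a mean log2 value of at least 7, 38.9% were higher and 42.8% lower. Of the members 6 passed that filter, 5 of them higher and 1 lower. Changes of at least 2-fold were less common, at 10.4% of all genes and 4 of the 8 measured members. The median change of the 8 genes was 0.61, against -0.01 over all genes, and the groups did not overlap for 6 of them, against 55.5% of all genes.

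**Figure D1:**
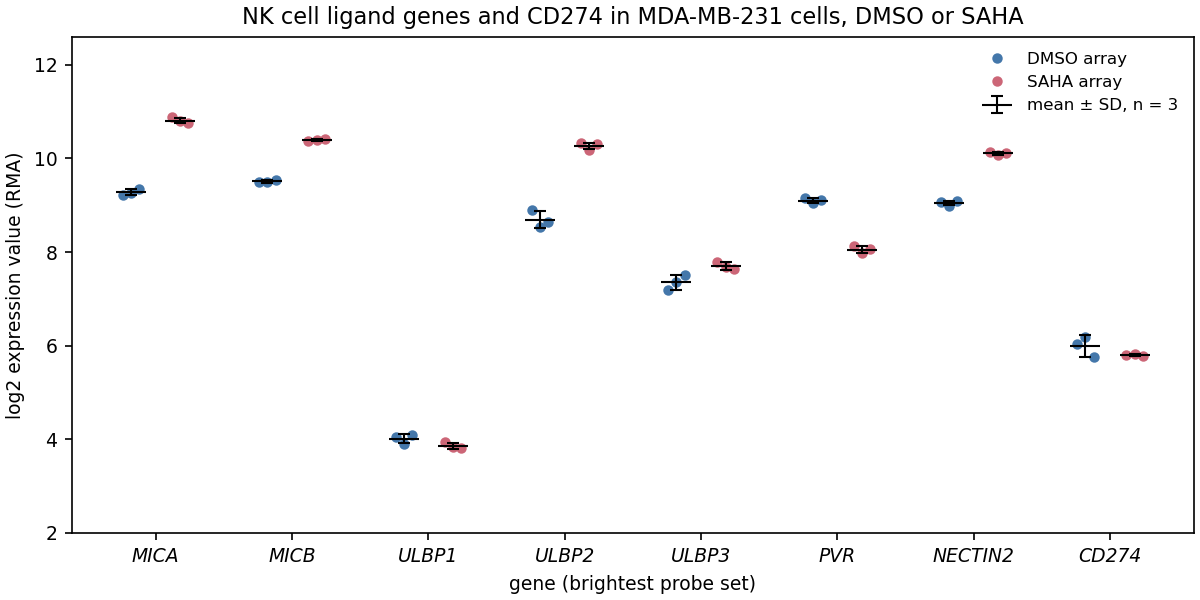
Log2 expression values of the 8 measured genes in each array, DMSO in blue and SAHA in red, with the mean and SD of 3 arrays as black bars. The 3 SAHA values lie above the 3 DMSO values for MICA, MICB, ULBP2, ULBP3 and NECTIN2 and below them for PVR, and the groups overlap for ULBP1 and CD274.

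MICA was at 9.22, 9.27 and 9.34 in the DMSO arrays and at 10.88, 10.80 and 10.75 in the SAHA arrays. All SAHA values were above all DMSO values, and each group spanned far less than the gap between them. The rise was 1.54 ± 0.06 (2.9-fold, 95% interval 1.39 to 1.68, limma's adjusted p = 9.31e-07), a size at the 96.1 percentile of all genes. Its other probe sets rose by 1.57 ± 0.06 and 1.63 ± 0.06, and neither differed from the brightest in the size of the change (differences of -0.04 ± 0.08 and -0.09 ± 0.06, limma's adjusted p = 0.832 and 0.418). All 3 MICA probe sets have names ending in _x_at or _s_at, which mark probes that match similar transcripts, and MICB is the closest relative of MICA.

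MICB was at 9.50, 9.50 and 9.54 in DMSO and at 10.37, 10.39 and 10.42 in SAHA arrays. The groups were again separate. Its rise was 0.88 ± 0.05 (1.84-fold, 95% interval 0.76 to 1.0, limma's adjusted p = 4.46e-06). The other 3 probe sets rose by 1.01 ± 0.06, 1.05 ± 0.06 and 1.07 ± 0.06. The first and last of these are not shared by similar transcripts, so the rise of MICB was also seen in probe sets of its own. The difference in rise between MICA and MICB was not tested, and their 95% intervals do not overlap in the brightest probe sets.

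The promoters of MICA and MICB, the pair of neighbouring genes that rose together, are shown because they share a heat shock element. They are the 250 bases before the start that the RefSeq promoter table gives, build GRCh38.p14, written 5′ to 3′ on the gene's strand. For 7 of the 9 members that start is the outermost start of the gene in the RefSeq gene table. For MICA and MICB it lies further downstream, inside the outermost bounds of the gene, and the table does not name the transcript it belongs to. Capitals mark matches on either strand to a heat shock element (GAANNTTC), to a CCAAT box and to a GC box, whose letters searched were GGGCGG.
MICA promoter, chr6:31403345-31403594, plus strand: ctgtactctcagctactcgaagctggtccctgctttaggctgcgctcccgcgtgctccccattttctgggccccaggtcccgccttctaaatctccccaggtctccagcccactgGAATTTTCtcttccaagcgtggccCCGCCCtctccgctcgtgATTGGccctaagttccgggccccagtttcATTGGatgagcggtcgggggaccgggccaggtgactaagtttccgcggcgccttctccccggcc
MICB promoter, chr6:31497895-31498144, plus strand: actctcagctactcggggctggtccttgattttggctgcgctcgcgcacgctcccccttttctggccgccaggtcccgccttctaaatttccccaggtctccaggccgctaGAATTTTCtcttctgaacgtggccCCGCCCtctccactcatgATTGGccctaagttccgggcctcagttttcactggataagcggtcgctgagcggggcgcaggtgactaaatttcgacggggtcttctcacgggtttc
An alignment of the pair held 210 identical positions, 84.0% of the 250 bases. The heat shock element lay 135 to 128 bases before that table's start in MICA and 139 to 132 in MICB, and the GC box 111 to 106 bases before it in MICA and 115 to 110 in MICB. Of 35116 RefSeq promoters of this length, 5.78% held that element, 42.6% a GC box and 32.0% a CCAAT box. Among the 9 members the heat shock element was found in these promoters only, and the GC box in 8 of 9, the exception being PVR. A match is a description of the letters and not a measured site.

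Among the ULBP genes, ULBP2 changed most. It was at 8.89, 8.54 and 8.64 in DMSO and at 10.32, 10.18 and 10.31 in SAHA arrays. All SAHA values exceeded all DMSO values. The rise was 1.58 ± 0.10 (2.99-fold, 95% interval 1.36 to 1.81, limma's adjusted p = 5.71e-06). This rests on 1 probe set ending in _x_at. The other 2 probe sets of ULBP2 lay between 2.68 and 3.42 on every array, near the lowest value of 2.33 on any array, and changed by -0.10 ± 0.18 and -0.07 ± 0.09 (limma's adjusted p = 0.712 and 0.590 over probe sets). The brightest differed from them in its change by 1.68 ± 0.16 and 1.65 ± 0.13 (limma's adjusted p = 0.000758 and 0.000408). Another 4 probe sets name ULBP2 together with RAET1L, or with RAET1L and RAET1G, and rose by 1.47 to 1.74. They cannot be assigned to 1 gene and are outside the 26. With the mean of its 3 probe sets ULBP2 was at 0.47 ± 0.10 (limma's adjusted p = 0.00532).

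The ULBP2 promoter, shown because ULBP2 rose about as much as MICA, held a GC box and a CCAAT box (in capitals) and no heat shock element in this window.
ULBP2 promoter, chr6:149941764-149942013, plus strand: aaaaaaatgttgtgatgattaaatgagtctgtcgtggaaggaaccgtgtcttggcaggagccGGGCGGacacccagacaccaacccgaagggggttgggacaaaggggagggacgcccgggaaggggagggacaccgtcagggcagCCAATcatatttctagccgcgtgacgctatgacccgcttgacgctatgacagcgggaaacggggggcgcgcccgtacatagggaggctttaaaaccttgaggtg

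ULBP3 was at 7.19, 7.36 and 7.50 in DMSO and at 7.79, 7.67 and 7.63 in SAHA arrays. The groups were separate, but SAHA replicate 3 and DMSO replicate 3 lay close together. The rise was 0.35 ± 0.09 (1.27-fold, 95% interval 0.14 to 0.56, limma's adjusted p = 0.0138). Its other probe sets rose by 0.46 ± 0.08 (adjusted p = 0.00121) and 0.39 ± 0.12 (limma's adjusted p = 0.0256 over probe sets), so all 3 moved up by similar amounts. The call was lost without SAHA replicate 1 (0.30 ± 0.10, limma's adjusted p = 0.0525). The dimmest of its probe sets lost its call without DMSO replicate 1, DMSO replicate 2, SAHA replicate 2 or SAHA replicate 3. The difference between 3′ and 5′ control probe sets of ACTB, which tracks transcript integrity and amplification, also separated the groups, at 1.05, 0.90 and 0.73 in DMSO and 0.66, 0.54 and 0.64 in SAHA arrays. With that difference as a covariate, ULBP3 was at 0.13 ± 0.13 (limma's adjusted p = 0.501).

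ULBP1 was dim in every array. Its 3 probe sets ranged from 2.81 to 4.09, close to the lowest values on the arrays, where a change would be understated. The brightest was at 4.05, 3.89 and 4.09 in DMSO and at 3.94, 3.83 and 3.81 in SAHA arrays, with overlapping groups. Its change was -0.15 ± 0.07 (95% interval -0.32 to 0.02, limma's adjusted p = 0.137), and the others were at -0.05 ± 0.06 and -0.05 ± 0.07. A probe set that names ULBP3, ULBP1 and RAET1K was at 0.13 ± 0.07 (limma's adjusted p = 0.196 over probe sets).

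The ligands of DNAM-1 moved in opposite directions. NECTIN2, which encodes the adhesion molecule CD112, was at 9.06, 8.99 and 9.10 in DMSO and at 10.13, 10.07 and 10.12 in SAHA arrays. All SAHA values were above all DMSO values. The rise was 1.06 ± 0.06 (2.08-fold, 95% interval 0.93 to 1.19, limma's adjusted p = 2.98e-06). Its other probe set, designed on a different NECTIN2 reference transcript, was at 8.11, 8.11 and 8.12 in DMSO and at 8.32, 8.18 and 8.15 in SAHA arrays. The groups did not overlap, with a change of 0.11 ± 0.07 (95% interval -0.05 to 0.26, limma's adjusted p = 0.244 over probe sets). The change of the brighter probe set exceeded that of the other by 0.95 ± 0.07 (limma's adjusted p = 0.000363). Over all genes with several probe sets, 15.8% of such differences between the brightest and another probe set of a gene were called. The rise of NECTIN2 rests on 1 of its 2 probe sets. With their mean it was at 0.58 ± 0.05 (limma's adjusted p = 2.64e-05).

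PVR, which encodes CD155, was at 9.15, 9.04 and 9.12 in DMSO and at 8.12, 7.97 and 8.07 in SAHA arrays. Every SAHA value was lower than every DMSO value. The change was -1.05 ± 0.06 (95% interval -1.19 to -0.90, limma's adjusted p = 5.42e-06), a 2.07-fold higher level in DMSO. The other 2 PVR probe sets that are not shared by similar transcripts also fell, with changes of -0.63 ± 0.09 and -0.69 ± 0.11 (limma's adjusted p = 0.000627 and 0.00106 over probe sets). The remaining probe set, ending in _x_at, was at 8.04, 7.92 and 7.80 in DMSO and at 7.96, 7.96 and 7.98 in SAHA arrays. Its groups overlapped, and its change was 0.04 ± 0.07 (95% interval -0.13 to 0.21, limma's adjusted p = 0.675 over probe sets). The brightest PVR probe set differed from it in its change by -1.09 ± 0.09 (limma's adjusted p = 0.00039) and from the third by -0.41 ± 0.09 (adjusted p = 0.0246). Its difference from the fourth was not called (-0.36 ± 0.14, adjusted p = 0.152). With the mean of its 4 probe sets PVR was at -0.58 ± 0.05 (limma's adjusted p = 2.44e-05).

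NECTIN2 and PVR both lie on chromosome 19, and their promoters are shown because the genes moved apart. Capitals mark GC boxes, of which NECTIN2 held 3 and PVR none. A link between GC boxes and these changes was not tested.
NECTIN2 promoter, chr19:44846047-44846296, plus strand: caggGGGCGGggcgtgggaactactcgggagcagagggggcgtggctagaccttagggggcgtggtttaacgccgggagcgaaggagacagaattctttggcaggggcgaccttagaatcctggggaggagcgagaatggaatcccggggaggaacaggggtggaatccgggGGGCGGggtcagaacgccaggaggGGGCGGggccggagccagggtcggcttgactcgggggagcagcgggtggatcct
PVR promoter, chr19:44643660-44643909, plus strand: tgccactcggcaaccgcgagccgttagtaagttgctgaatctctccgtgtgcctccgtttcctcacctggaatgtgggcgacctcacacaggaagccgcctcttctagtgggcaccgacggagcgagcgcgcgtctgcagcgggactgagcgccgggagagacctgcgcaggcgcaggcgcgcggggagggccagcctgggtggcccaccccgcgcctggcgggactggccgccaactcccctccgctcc

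CD274 had no clear change in its brightest probe set, at 6.04, 6.19 and 5.75 in DMSO and at 5.80, 5.82 and 5.78 in SAHA arrays. The SAHA values lay within the range of the DMSO values. The change was -0.19 ± 0.11 (95% interval -0.45 to 0.06, limma's adjusted p = 0.188). It was called without DMSO replicate 3, the lowest DMSO array (-0.32 ± 0.07, limma's adjusted p = 0.00924). With the ACTB difference as a covariate it was at 0.03 ± 0.17 (adjusted p = 0.932).

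The other CD274 probe sets also had negative changes, 1 of them called. The second was at 5.47, 5.77 and 5.87 in DMSO and at 5.26, 5.50 and 5.46 in SAHA arrays, a change of -0.30 ± 0.12 (limma's adjusted p = 0.0717 over probe sets). The third was at 5.33, 5.90 and 6.16 in DMSO and at 4.91, 4.86 and 5.39 in SAHA arrays. It fell by 0.74 ± 0.22 (limma's adjusted p = 0.0255 over probe sets), although the lowest DMSO array lay below the highest SAHA array. That call was lost without DMSO replicate 2, DMSO replicate 3, SAHA replicate 1 or SAHA replicate 2, with adjusted p from 0.0681 to 0.0885. The fourth was dim, with a change of -0.16 ± 0.14 (adjusted p = 0.411). None of the 3 differed from the brightest in its change, with adjusted p of 0.295 to 0.945 in limma's test of the differences. With the mean of the 4 probe sets, CD274 was at -0.35 ± 0.06 (limma's adjusted p = 0.0022).

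The CD274 promoter is shown because it held 2 overlapping interferon regulatory factor (IRF) elements and a GAS element (TTCNNNGAA). No other member's promoter held either element. Of all promoters, 3.02% held at least 1 IRF element and 6.57% a GAS element. The share with an overlapping pair was not counted. Capitals mark the IRF and GAS elements and a GC box.
CD274 promoter, chr9:5450292-5450541, plus strand: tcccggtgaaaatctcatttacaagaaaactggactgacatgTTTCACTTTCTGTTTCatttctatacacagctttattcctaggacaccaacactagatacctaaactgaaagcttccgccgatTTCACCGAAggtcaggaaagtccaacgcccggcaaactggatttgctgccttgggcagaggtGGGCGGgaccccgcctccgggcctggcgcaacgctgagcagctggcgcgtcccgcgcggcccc
The overlapping pair lay 208 to 193 bases before the start and the GAS element 125 to 117. No AP-1 site (TGANTCA, in 6.57% of promoters) or TATA box (in 10.7%) was found in the 250 bases of any of the 9 members. Nor was an E box of the form CACGTG (in 6.34%) or an NF-kB site in the form searched (in 1.97%). Other forms of the E box and of the NF-kB site were not searched.

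Over all 26 probe sets of the members, 12 rose and 4 fell and 10 were not called, while of all probe sets 46.4% were called, 22.2% higher and 24.1% lower. The groups did not overlap in 16 of the 26, against 54.4% of all probe sets. Those that rose were all 3 of MICA, all 4 of MICB, all 3 of ULBP3, 1 of 3 of ULBP2 and 1 of 2 of NECTIN2. Those that fell were 3 of 4 of PVR and 1 of 4 of CD274. The median change over the 26 was 0.08, against 0.61 over the 8 genes. Probe sets of 1 gene share its transcripts and are not independent.

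**Figure D2:**
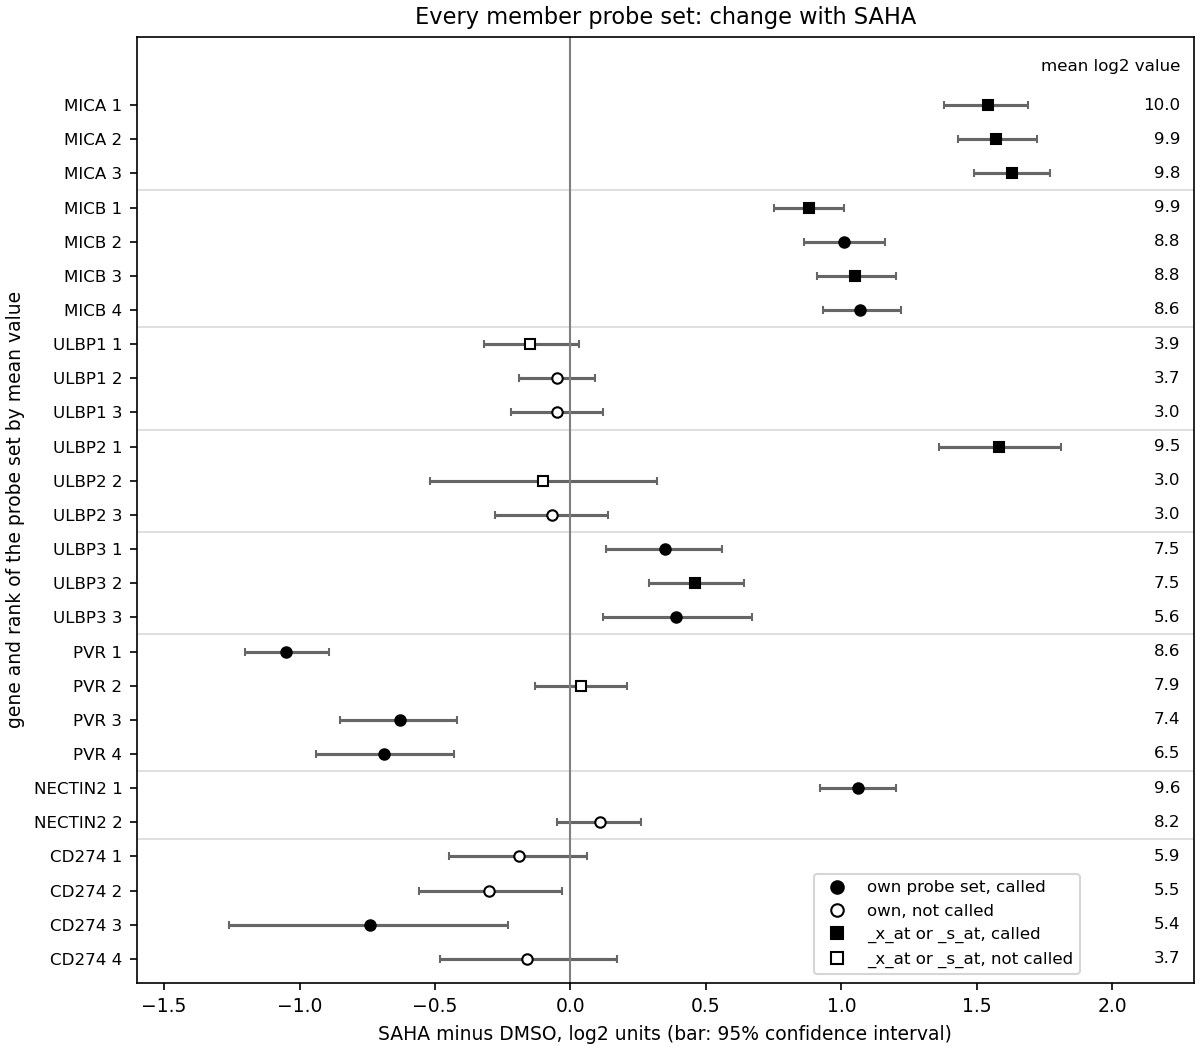
Change with SAHA of each of the 26 probe sets (SAHA minus DMSO, log2 units, bars are 95% confidence intervals), ordered within a gene by mean value, which is printed at the right. Circles are probe sets of a gene's own and squares those ending in _x_at or _s_at, and filled symbols have an adjusted p under 0.05. MICA, MICB and ULBP3 have all probe sets to the right of 0, while those of ULBP2, PVR and NECTIN2 differ among themselves.

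The other NKG2D ligand genes of the RAET1 family were measured as well, and each of the 3 was called. RAET1G rose by 1.94 ± 0.08 (limma's adjusted p = 8.33e-07), from 6.22 ± 0.08 to 8.16 ± 0.11 (SD, n = 3). RAET1L rose by 0.67 ± 0.12 (adjusted p = 0.00245) from a dim level of 3.85 ± 0.27, in a probe set shared by similar transcripts. RAET1E fell by 1.55 ± 0.14 (adjusted p = 4.87e-05), from 5.18 ± 0.26 to 3.63 ± 0.18. Its other probe set fell by 0.56. Across the 8 MIC, ULBP and RAET1 genes measured, 6 were thus called higher, 1 lower and 1 not at all. Of all genes 24.6% were called higher and 23.8% lower. The brightest probe sets of MICA, MICB, ULBP2 and RAET1L are shared by similar transcripts, so the 6 rises are not separate measurements.

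With the ACTB difference as a covariate 1 of the 2 rises among the RAET1 genes was still called.

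Of 14 other genes for ligands of NK cell activating receptors, 4 rose, 2 fell and 8 were not called, with a median change of 0.04. Tested among genes with a mean log2 value of at least 7, 1 was higher and 4 were lower. CLEC2B, which encodes the NKp80 ligand AICL, fell by 1.61 ± 0.06 (limma's adjusted p = 6.15e-07), and its other probe set fell by 1.23. CD58, the ligand of CD2, fell by 0.97 ± 0.09 (adjusted p = 5.88e-05). TNFSF9, the ligand of 4-1BB, rose by 1.51 ± 0.10 (adjusted p = 8.07e-06) and PDGFD, a ligand of NKp44, by 0.85 ± 0.10 (adjusted p = 0.000261). Of the other 5 CD58 probe sets, 4 fell, and the other TNFSF9 probe set rose by 3.77.

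Among 15 measured genes for ligands of NK cell inhibitory receptors, 6 rose, none fell and 9 were not called. HLA-E, which presents peptides to the inhibitory receptor NKG2A, rose by 0.74 ± 0.05 (limma's adjusted p = 1.35e-05). HLA-C and HLA-B, ligands of killer immunoglobulin-like receptors, rose by 0.71 ± 0.05 (adjusted p = 1.8e-05) and 0.67 ± 0.05 (adjusted p = 2.42e-05). All 3 were measured with probe sets shared by similar transcripts, so signals of similar HLA class I transcripts cannot be told apart. The other HLA-E and HLA-C probe sets were all called higher. Those of HLA-B were at 0.07 and 0.57, and 1 of these 2 was called. NECTIN1, a nectin that binds CD96, rose by 0.40 ± 0.06 (adjusted p = 0.000561), although its other probe sets lay between -0.13 and 0.28.

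Of 18 measured genes of the B7 family and other checkpoint ligands apart from CD274, 2 rose, 2 fell and 14 were not called. PDCD1LG2, which encodes the second PD-1 ligand PD-L2 and lies next to CD274, fell by 2.02 ± 0.14 (limma's adjusted p = 1.21e-05), and its other 3 probe sets fell by 0.34 to 0.95. NT5E, the ecto-enzyme CD73, fell by 0.42 ± 0.07 (adjusted p = 0.00194). VSIR, which encodes VISTA, rose by 2.65 ± 0.11 (adjusted p = 8.66e-07), but its other probe set was at 0.09 and not called. CD276, which encodes B7-H3, rose by 0.28 ± 0.06 (adjusted p = 0.0036), with its other probe set at -0.01. Centred on the poly-A controls, 5 of the 18 were higher and 1 lower.

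**Figure D3:**
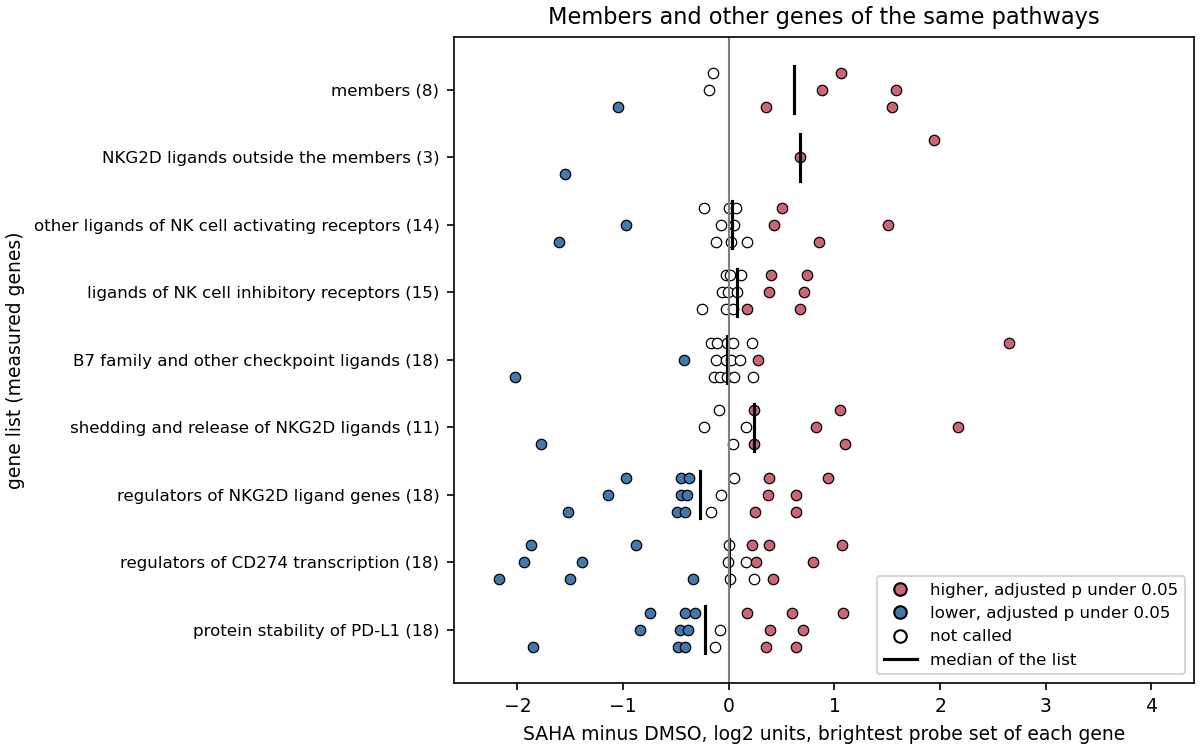
Change with SAHA (log2 units, SAHA minus DMSO) of every measured gene of the member set and of the fixed gene lists, 1 point a gene, filled where the adjusted p was under 0.05, with the median of each list as a bar. Of the 8 members 5 are filled to the right of 0 and 1 to the left, and most of the 18 points of the B7 family list are open and lie near 0.

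The 11 genes for shedding and release of NKG2D ligands are mostly proteases and their inhibitors. They gave 6 rises and 1 fall, with a median change of 0.24. MMP14, a membrane metalloprotease, fell by 1.78 ± 0.06 (limma's adjusted p = 3.67e-07). Its other probe sets were between -2.50 and -0.90. The metalloprotease inhibitors RECK and TIMP3 rose by 2.17 ± 0.10 (adjusted p = 1.83e-06) and 1.05 ± 0.06 (adjusted p = 4.51e-06), and the protease MMP9 by 1.1 ± 0.07 (adjusted p = 7.79e-06). The other RECK probe sets lay between 0.12 and 0.81. Of the sheddases in the list, named for their role after their values were seen, ADAM10 rose by 0.24 ± 0.08 (adjusted p = 0.0345), while ADAM17 at 0.16 ± 0.08 (adjusted p = 0.129) and ADAM9 at -0.23 ± 0.08 (adjusted p = 0.051) were not called.

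Of 18 measured regulators of NKG2D ligand genes, 6 rose and 9 fell, with a median change of -0.27. E2F3, a transcription factor of the cell cycle, fell by 1.52 ± 0.08 (limma's adjusted p = 2.39e-06), AGO2, the slicer of the miRNA pathway, by 1.14 ± 0.07 (adjusted p = 4.65e-06), and the insulator protein CTCF by 0.97 ± 0.06 (adjusted p = 6.24e-06). HSPA1B, a heat shock protein gene, rose by 0.94 ± 0.06 (adjusted p = 7.82e-06) in a probe set shared by similar transcripts. Centred on the poly-A controls, 4 of the 18 were lower.

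Of 18 measured regulators of CD274 transcription, 6 rose, 7 fell and 5 were not called, with a median change of 0.01. NFKB1, a subunit of NF-kB, fell by 2.17 ± 0.05 (limma's adjusted p = 1.68e-07), and EGFR by 1.87 ± 0.05 (adjusted p = 2.35e-07), with other EGFR probe sets between -2.27 and 0.01. The chains of the interferon gamma receptor moved in opposite directions. IFNGR2 fell by 1.94 ± 0.06 (adjusted p = 3.63e-07), and IFNGR1, named after its value was seen, rose by 0.80 ± 0.05 (adjusted p = 6.16e-06). JAK1, a kinase of the interferon gamma receptor, rose by 1.07 ± 0.05 (adjusted p = 1.99e-06). Of 18 genes listed for the stability of PD-L1 protein, 7 rose and 9 fell. An effect of any of them on PD-L1 protein was not tested. CMTM3, listed as a relative of the PD-L1 stabiliser CMTM6, fell by 1.85 ± 0.06 (adjusted p = 3.31e-07 in limma's test). The deubiquitinase USP22 fell by 0.84 ± 0.06 (adjusted p = 9.24e-06) and CDK4 by 0.75 ± 0.06 (adjusted p = 2.39e-05). HIP1R, which directs PD-L1 to lysosomes, rose by 1.08 ± 0.07 (adjusted p = 1.03e-05), with other probe sets at 0.26 and 0.28. CMTM6 itself, named for its role, rose by 0.17 ± 0.05 (adjusted p = 0.0209). Centred on the poly-A controls, 4 of the 18 were lower.

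The genes on either side of the members were compared in the gene order of GRCh38.p14, over the nearest 2 protein-coding genes on each side. Of 24 measured neighbours that are no members, 8 rose, 4 fell and 12 were not called, against the 24.6% and 23.8% of all genes given above. Around MICA and MICB the order is HLA-C, HLA-B, MICA, MICB, MCCD1 and DDX39B. The first 4 rose, MCCD1 was at 0.09 and not called, and DDX39B, an RNA helicase, fell by 0.49 ± 0.09 (limma's adjusted p = 0.00207). Within the ULBP cluster, RAET1E fell and its neighbour RAET1G rose, and ULBP1, between the risen ULBP2 and RAET1L, was not called. PPP1R14C, an inhibitor of protein phosphatase that follows ULBP3, rose by 1.59 ± 0.12 (adjusted p = 1.73e-05), and IYD after it was at -0.13 and not called.

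The neighbours of PVR that were measured, CEACAM20, CEACAM19 and CEACAM16, were at -0.06, 0.15 and 0.02 and not called. Next to NECTIN2, BCAM was at 0.17 and not called, while TOMM40, a subunit of the mitochondrial import pore, fell by 0.51 ± 0.07 (limma's adjusted p = 0.000673). The outer neighbours CBLC and APOE were at 0.05 and 0.12 and not called. Beside NCR3LG1, which was not analysed here, NUCB2 rose by 0.81 ± 0.08 (adjusted p = 7.19e-05) and PIK3C2A by 0.87 ± 0.16 (adjusted p = 0.00262). On its other side KCNJ11 and ABCC8 were at 0.08 and -0.07 and not called. Beside CD274, RLN1 and PLGRKT were at 0.13 and -0.09 and not called, PDCD1LG2 fell as given above, and RIC1 rose by 0.59 ± 0.06 (adjusted p = 0.000122).

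**Figure D4:**
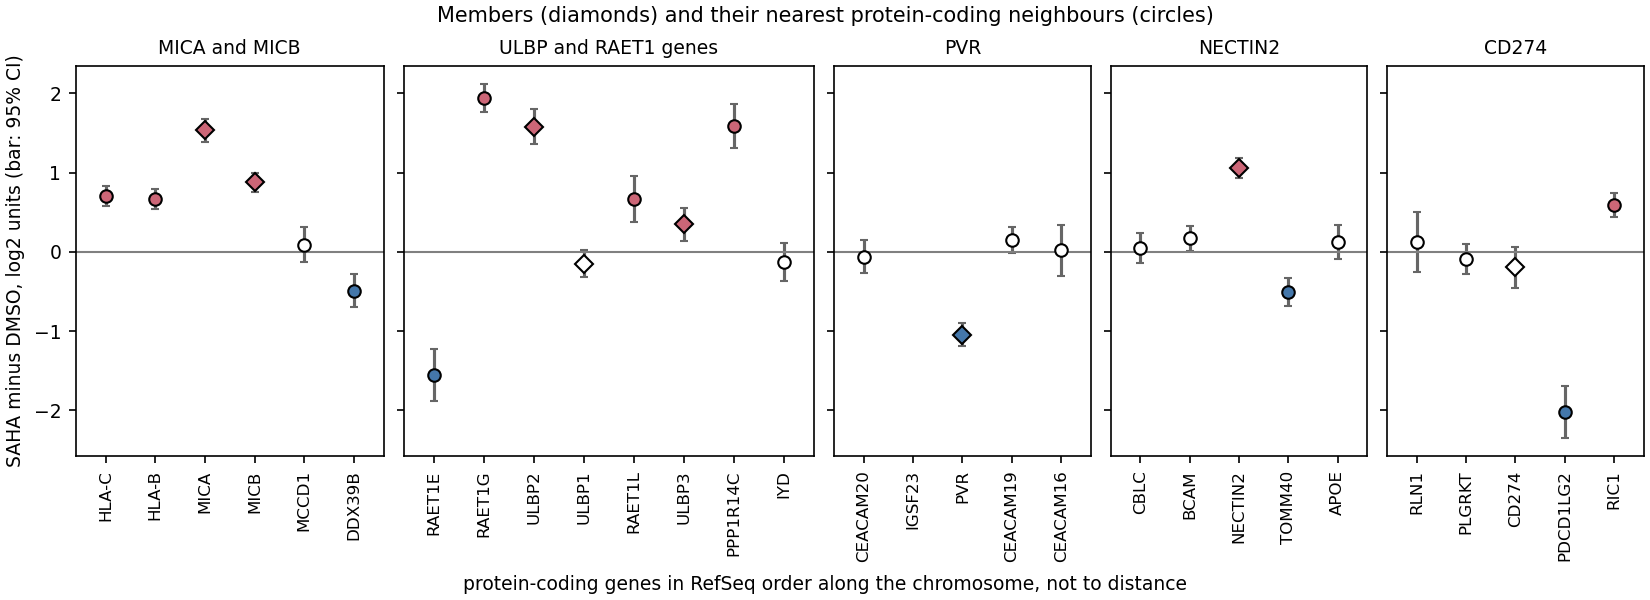
Change with SAHA (log2 units, bars are 95% confidence intervals) of the members and of their nearest protein-coding neighbours in chromosomal order, filled where the adjusted p was under 0.05. Members are diamonds and neighbours circles, and no point is drawn for IGSF23. HLA-C, HLA-B, MICA and MICB lie above 0, RAET1E and RAET1G on opposite sides of it, and the filled diamond of PVR below 0 among open circles.

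Genes whose log2 values over the 6 arrays lay nearest to those of ULBP2 were FAM89B, KIF3A and WIPI1, at root mean square distances of 0.13, 0.15 and 0.15. Their changes were 1.61, 1.45 and 1.48. Nearest to PVR, the one fall, were CAVIN3, TM9SF4 and OGFRL1, at distances of 0.05, 0.07 and 0.08 and with changes of -1.06, -0.95 and -1.12. By the rule ULBP2 was taken as the member with the largest fitted rise (1.58, against 1.54 for MICA). The 95% intervals of these rises overlap, and MICA was the higher in some alternatives, as without DMSO replicate 2 (1.53 against 1.51). Such a distance joins a probe set's brightness with its change and is a description of these arrays.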

How the data were processed

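Total RNA of 6 samples was hybridised to 1-colour arrays. The authors deposited log2 values for 49395 probe sets, made with RMA per the submitters' processing notes; for the software version and any later filter, the entry is: not given in the sources used here. Of these, 102 array controls were left out, 44988 probe sets named 1 gene, 1832 several and 2473 none in the platform annotation. RMA puts all arrays on 1 distribution, so a shift of most transcripts together would not appear.

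Each gene was taken from its brightest probe set naming only that gene. Groups were compared with limma 3.58.1 (lmFit and eBayes) in R 4.3.3, over genes and over probe sets, with Benjamini-Hochberg adjustment at 0.05. The method was tested on simulated data, in which few genes changed, unlike on these arrays. It recovered 14% of 1.2-fold, 72% of 1.5-fold and 92% of 2-fold changes, with 6 false calls. A gene that was not called can thus have changed. The number of arrays limits the precision: 3 against 3 cannot go below 0.1 in an exact two-sided permutation test.

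Named genes are the 9 members, the 4 genes of each list with the smallest p, and the 3 nearest in likeness. Outside that rule, ADAM9, ADAM10, ADAM17, CMTM6, IFNGR1, the genes beside the members and the marker genes of the array check were named after their values were seen. Members and lists were chosen with earlier results of these data known. The comparison of probe sets of 1 gene, the neighbours and the promoter motifs were added after the data were examined. Replicate numbers gave no sign of a positive correlation between paired arrays: same-numbered arrays had deviations correlating at -0.097, -0.079 and -0.035. These were below those of all other pairs of a DMSO and a SAHA array, which were at -0.015 to 0.086. With 3 arrays per group such correlations cannot exclude pairing. Figures were drawn with matplotlib 3.10.9 and promoters aligned with Biopython 1.88. Alternatives covered the choice of probe set, filters at 5 and 7, scaling, moderation, weights, a covariate, the threshold and leaving out each array.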

Additional observations from a re-analysis of the deposited data

How the results depend on the processing

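MICA, MICB, PVR and NECTIN2 kept their direction and call in all alternatives run, except that PVR was at 0.04 and NECTIN2 at 0.11 (limma's adjusted p = 0.241) in the second brightest probe set. With that probe set ULBP2 was at -0.10, 3 member genes were higher and 0 lower, and 2719 of all genes were higher, over the 11734 genes that have one. Without probe sets ending in _x_at or _s_at, ULBP2 was at -0.07, 3 member genes and 5 member probe sets were higher, and MICA was not tested. Averaging the probe sets of each gene, 2 member genes were lower and ULBP2 was at 0.47, NECTIN2 at 0.58 and PVR at -0.58, and with a mean log2 value of at least 7, 2 member probe sets were lower. Centring on the poly-A controls moved the median of all genes to 0.17, left 2412 genes lower and put ULBP1 at 0.03, its other probe sets at 0.13 and 0.13, the dim ULBP2 probe sets at 0.11 and 0.08, and the fourth CD274 probe set at 0.02. Centring on ribosomal protein genes moved the median to 0.07 and put the dimmer ULBP1 probe sets at 0.02 and 0.03 and a dim ULBP2 one at 0.01. With the ACTB covariate CD274 was at 0.03 and a ULBP1 probe set at 0.04. Leaving out each array in turn gave 4 to 5 member genes higher and 1 to 2 lower, 11 to 12 member probe sets higher and 3 to 5 lower, and 4095 to 4349 genes higher and 3963 to 4149 lower. Dim or unchanged probe sets changed sign there, with a PVR one at -0.01 to 0.10, a ULBP1 one at -0.09 to 0.01 and a ULBP2 one at -0.30 to 0.07. With the replicate number as a block, 5 member genes were higher and 1 lower, 12 and 5 member probe sets, and 4214 and 4077 of all genes. Deviations of same-numbered arrays were not positively correlated. ULBP3 was not called at a threshold of 0.01. The causes of these changes were not tested. Signal near the lowest array values limits ULBP1 and the dim ULBP2 probe sets.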
